A study of Mus musculus with 14 samples.

Results

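The departure from additivity of MYCi975 and TMP195 asks, gene by gene, whether tumours given both compounds differed from vehicle tumours by the sum of what each compound did alone. It was computed from RNA sequencing of 14 libraries of LLC1 tumours, grown in mice from the Lewis lung carcinoma line. The departure is the mean of the combination minus the mean of TMP195, minus the mean of MYCi975, plus the mean of vehicle. It was taken for each gene whose mean over the 14 libraries exceeded the lowest value in the table by more than 1 log2 unit, which kept 13711 of 21152 genes. Just inside that limit was Aoc2 with a mean of 5.05, and just outside was Hoxc8, also with a mean of 5.05. Values are on a log2-like scale, so a sum of differences there is a product of fold changes in expression.

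The Combo group received both MYCi975 and TMP195 and has 3 libraries. The MYCi975 group received MYCi975 alone at 50 mg/kg and has 4 libraries, and the TMP195 group received TMP195 alone at 50 mg/kg and has 3 libraries. The Vehicle group received DMSO and has 4 libraries. All 4 groups carried LLC1 tumours and were treated for 16 days. The sources used here do not give the doses within the combination, the strain, age and sex of the hosts or the site of the tumours. The series' design text speaks of a suspension of the whole tumour, whereas the extraction protocol speaks of a population enriched for tumour cells. Nothing in the labels says that each library came from its own animal. The p-values judge a difference against the spread of libraries within groups, and that spread may be technical. In RNA pooled from many cells, fewer cells of a type and less RNA per cell cannot be told apart.

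MYC is a transcription factor that pairs with MAX, binds the E-box sequence and drives genes of growth, ribosome production and the cell cycle. MXD1 and MXI1 compete with it for MAX and repress the same sites. MYCi975 is a small molecule that disrupts the pairing of MYC with MAX and lowers MYC protein. TMP195 occupies the catalytic pocket of a group of histone deacetylases, class IIa, made up of HDAC4, HDAC5, HDAC7 and HDAC9. These act mainly as scaffolds that hold corepressors on MEF2 factors. In mouse mammary tumours TMP195 is known for acting on macrophages. In tests of drug pairs, a positive departure for a gene that both compounds lower, or a negative one for a gene that both raise, is called antagonistic, and a departure in the direction of the single agents is called synergistic.

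Hdac5 and Hdac4 encode targets of TMP195, and both lay below the additive value at an unadjusted p under 0.05, as described further on. Their promoters are shown because they differ in the letters that MYC and MEF2 factors are known to bind. The sequences are RefSeq's, on the GRCm38.p6 assembly, from 250 bases before to 50 bases after the start of the gene, on the minus strand in both cases. Capitals mark the E-box CACGTG and the MEF2 core CTANNNNTAG, in which N is any base. Both motifs read the same on the opposite strand, and they do not overlap each other here.
Hdac5 at chr11:102230123-102230422: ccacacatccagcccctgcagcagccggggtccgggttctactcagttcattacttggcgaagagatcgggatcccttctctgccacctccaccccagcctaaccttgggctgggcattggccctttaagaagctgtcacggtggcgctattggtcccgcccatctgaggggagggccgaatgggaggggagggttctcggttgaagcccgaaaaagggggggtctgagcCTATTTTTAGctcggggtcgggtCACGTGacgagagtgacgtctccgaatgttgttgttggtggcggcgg
Hdac4 at chr1:92180292-92180591: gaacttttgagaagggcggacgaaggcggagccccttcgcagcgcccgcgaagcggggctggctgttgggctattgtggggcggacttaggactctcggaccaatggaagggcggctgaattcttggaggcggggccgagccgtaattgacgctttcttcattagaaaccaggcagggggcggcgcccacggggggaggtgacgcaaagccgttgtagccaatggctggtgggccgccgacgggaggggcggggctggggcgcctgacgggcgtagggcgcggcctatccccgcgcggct
The Hdac5 window held 1 E-box and 1 MEF2 core, and the Hdac4 window held neither. Of the class IIa genes not shown, Hdac9 had a MEF2 core but no E-box in 1 of its windows. The windows of Hdac7 held neither motif, and neither Hdac7 nor Hdac9 reached an unadjusted p under 0.05. Of the promoters of 27025 genes in the reference, all of this length, 8.09% held an E-box and 4.23% a MEF2 core. Both motifs stood together in 53 of 9565 promoters of tested genes, or 0.55%. An E-box stood in 13.1% of the promoters of genes below additive at an unadjusted p under 0.05 (41 of 314), in 8.92% of those above (14 of 157) and in 11.6% of the promoters of all tested genes. A MEF2 core stood in 2.55%, 3.18% and 3.62% of the same sets. These shares describe letters in a window and say nothing of what binds there.

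No library was a copy of another, since the mean absolute difference between any pair was at least 0.22 log2 units. Depth is unknown for every library, and from 880 to 2954 of the genes in the table stood at the lowest value, 4.05, in each library. MYCi975 replicate 2 had the most genes at that value and the smallest weight, 0.36, when limma weighted the libraries by their fit. Its value of Ptprc, the gene of the leukocyte antigen CD45, was 12.07, against 9.65 to 11.45 in the other 13 libraries. Vim, a mesenchymal gene, and Hmga2, an oncofetal chromatin gene, had medians of 14.37 and 11.08 over the libraries, and the keratin genes Krt8 and Krt18 had medians of 8.27 and 8.33. The epithelial genes Epcam and Krt19 had medians of 4.36 and 4.67 and were too low to be tested.

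No gene passed the test of additivity once the number of genes was taken into account. In limma's moderated test with Benjamini-Hochberg adjustment over all 13711 genes, 0 genes (0.0%) passed 0.05, and the smallest adjusted p was 0.911. An unadjusted p under 0.05 was reached by 656 genes, or 4.78%, while 5% of the genes tested would be 685.55. Of these, 418 genes (3.05%) lay below the additive value and 238 (1.74%) above it. These counts rest on single libraries: leaving out Combo replicate 1 gave 214 below and 144 above, TMP195 replicate 3 gave 249 and 150, MYCi975 replicate 3 gave 739 and 352, and MYCi975 replicate 4 gave 643 and 304, still with 0 genes past the adjusted threshold. The comparisons of Combo, MYCi975 and TMP195 with Vehicle also gave 0 genes each (0.0%), with 470 (3.43%), 457 (3.33%) and 381 (2.78%) genes at an unadjusted p under 0.05.

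Departures were small for most genes and lopsided among the large ones. The median departure was 0.00 and its median size without regard to sign was 0.20, with 49.8% of genes below 0 and 50.2% above. The middle of the distribution was even, with the 25th percentile at -0.21 and the 75th at 0.19. The tails were not, with the 1st percentile at -1.06 and the 99th at 0.72. A departure of at least 1 log2 unit below additive was seen in 178 genes (1.3%), against 30 genes (0.219%) at least 1 unit above. The precision bounds what these libraries could show: the median standard error was 0.26, and the median 95% interval reached 0.56 to either side of the estimate. It reached less than 1 to either side in 94.7% of genes. Data were simulated with independent normal noise and 50 changed genes at each size of 1, 2, 3 and 4 log2 units. In them 36% of departures of 1 log2 unit passed the adjusted threshold, and 92% of those of 2 units. The adjusted threshold depends on how many genes change, so these shares may be too high for the tumour libraries. A count of 0 genes therefore does not show that departures of 1 unit were absent.

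**Figure D1:**
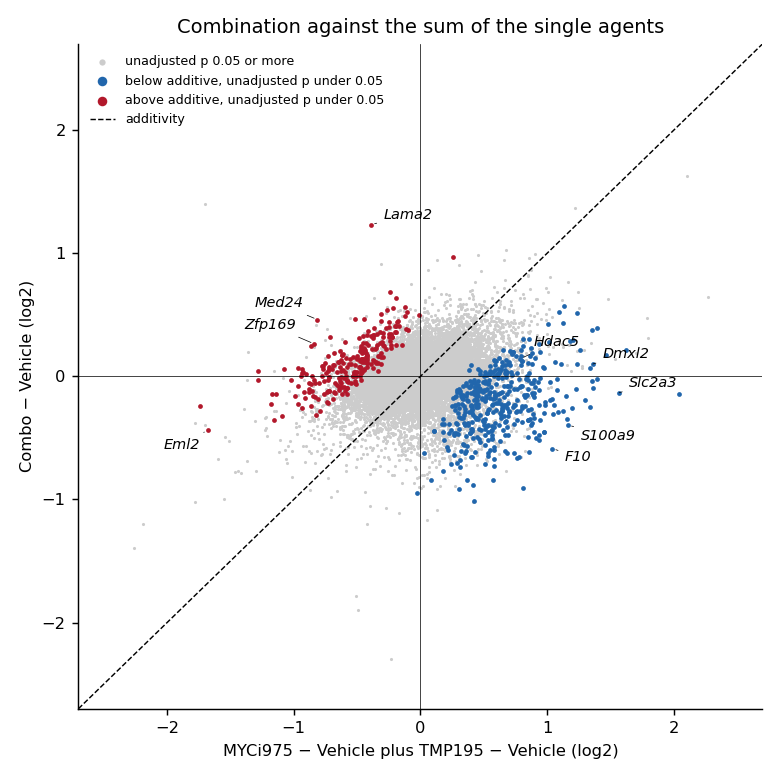
Each point is 1 of 13711 genes, with the sum of the differences of MYCi975 and of TMP195 from Vehicle on the x axis and the difference of Combo from Vehicle on the y axis, both in log2 units; the diagonal is additivity. Coloured points are the 418 genes below and 238 genes above the diagonal at an unadjusted p under 0.05, and 2 genes lie outside the axes.

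The shape of the 4 group means was then sorted by sign. Where both single agents lay on the same side of Vehicle, a gene was called synergistic if Combo went further than their sum. It was called less than additive if Combo went past both but not as far as the sum, attenuated if Combo stayed between Vehicle and the stronger single agent, and reversed if Combo crossed to the other side of Vehicle. The last 3 are the antagonistic shapes. Where the single agents lay on opposite sides of Vehicle, Combo could be above both, between them or below both.

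Over all tested genes, 1134 (8.27%) were synergistic and 7432 (54.2%) antagonistic. The antagonistic genes comprised 826 less than additive (6.02%), 3419 attenuated (24.9%) and 3187 reversed (23.2%). In the remaining 5145 genes (37.5%) the single agents lay on opposite sides, with Combo above both in 1495, between them in 2176 and below both in 1474. Among the 208 genes with a departure of at least 1 log2 unit, 156 (75.0%) were reversed and 29 attenuated, and of the reversed genes 140 had both single agents above Vehicle and Combo below it. Only 1 of these 208 was synergistic, Zfp969, a zinc finger gene named here after its value was seen. Among the 656 genes at an unadjusted p under 0.05, 463 (70.6%) were reversed, 157 (23.9%) attenuated and 0 synergistic. The Vehicle mean enters the departure with one sign and both single-agent differences with the other, so spread in the Vehicle libraries alone favours antagonistic over synergistic shapes, and the counts are a description with no test.

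**Figure D2:**
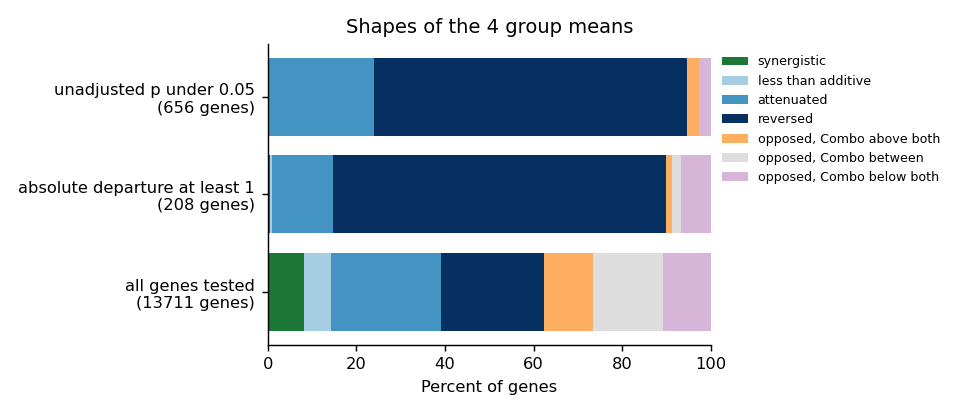
Bars give the percent of genes in each of the 7 shapes for all 13711 genes tested, for the 208 genes with a departure of at least 1 log2 unit and for the 656 genes at an unadjusted p under 0.05. The reversed shape takes 23.2% of all genes, 75.0% of those with a large departure and 70.6% of those with a small p.

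Jdp2, which encodes a repressor of the AP-1 transcription factor, had the reversed shape by its group means, although its Combo and Vehicle libraries overlapped. Jdp2 (ENSMUSG00000034271.17) had 6.73, 7.15 and 6.88 in the Combo libraries, 7.47, 7.87, 7.28 and 7.20 in the MYCi975 libraries, 7.26, 7.37 and 7.33 in the TMP195 libraries, and 7.15, 7.06, 7.18 and 6.75 in the Vehicle libraries. Every single-agent library lay above every Combo and every Vehicle library. Its departure was -0.82 ± 0.24 (standard error), with limma's adjusted p = 0.911. Over all tested genes 3 (0.0219%) had this complete separation with the single agents above, and 1 (0.00729%) had it with the single agents below. The other two with the single agents above were Fxr2, a relative of the fragile X RNA-binding protein with a departure of -0.57, and Draxin, an axon guidance gene with a departure of -0.52. The 1 gene with the single agents below was Ccdc77, with a departure of 0.69. These 3 were named after their values were seen.

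The 12 genes below additive with the smallest p were Nsun6, Narfl, Mreg, Dmxl2, Sbno1, S100a9, Rasgrp4, Il18r1, Abcb1a, Jdp2, Acvrl1 and Abcg1, with departures from -1.56 to -0.52. Of them, 11 were reversed and 1, Dmxl2, was attenuated. Every Combo library lay below every single-agent library in 9 of the 12, against 151 of all tested genes (1.1%), but the 12 were chosen on the same contrast and nothing follows from that share. All 12 had limma's adjusted p = 0.911.

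Nsun6 encodes a methyltransferase that places methyl groups on cytosines in RNA. Nsun6 (ENSMUSG00000026707.16) had 5.29, 5.41 and 5.58 in the Combo libraries, 6.10, 6.09, 6.09 and 6.11 in the MYCi975 libraries, 6.26, 5.73 and 5.89 in the TMP195 libraries, and 5.95, 5.56, 5.80 and 5.32 in the Vehicle libraries. All MYCi975 libraries lay above all Vehicle libraries, the TMP195 and Vehicle libraries overlapped, and all Combo libraries lay below all single-agent libraries. Combo averaged 5.42 ± 0.15 (SD, n = 3), where additivity of the group means gives 6.40. The departure was -0.97 with a 95% interval from -1.49 to -0.46.

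Narfl takes part in building iron-sulphur clusters in the cytosol. Narfl (ENSMUSG00000002280.12) had 5.68, 5.48 and 5.99 in the Combo libraries, 6.16, 6.90, 6.86 and 6.38 in the MYCi975 libraries, 5.78, 6.69 and 6.50 in the TMP195 libraries, and 6.01, 6.12, 5.83 and 5.54 in the Vehicle libraries. The MYCi975 libraries lay above all Combo and Vehicle libraries, while TMP195 replicate 1 lay among them. The departure was -1.31 with a 95% interval from -2.04 to -0.58.

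Dmxl2, a regulator of the proton pump that acidifies vesicles, had means of 7.96 in Combo, 8.61 in MYCi975, 8.48 in TMP195 and 7.86 in Vehicle. Its departure was -1.26, the additive value being 9.22. Mreg, a gene of melanosome and phagosome traffic, had 4.94, 5.05 and 5.0 in Combo, 4.96 to 5.74 in MYCi975, 5.68, 5.79 and 5.58 in TMP195 and 4.70 to 5.13 in Vehicle. Every TMP195 library of Mreg lay above every Combo and Vehicle library, and the departure was -0.95. Sbno1, a nuclear helicase-like gene, was the most even across replicates, with 10.39 to 10.58 in Combo, 10.91 to 11.01 in MYCi975, 10.68 to 10.81 in TMP195 and 10.57 to 10.76 in Vehicle. Its departure of -0.52 came with the smallest standard error of the 12, 0.15, and all MYCi975 libraries lay above all others.

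S100a9, a subunit of calprotectin, the main cytosolic protein of neutrophils, had 10.96, 11.17 and 10.92 in the Combo libraries, 12.15, 13.00, 11.22 and 12.28 in the MYCi975 libraries, 11.73, 12.15 and 11.60 in the TMP195 libraries, and 11.43, 11.40, 10.85 and 11.97 in the Vehicle libraries. Every Combo library lay below every single-agent library, and the Vehicle libraries spread across both. Its departure, -1.56 ± 0.45 (standard error), was the largest of the 12. Rasgrp4, an activator of Ras in mast cells and other myeloid cells, departed by -1.20, and Il18r1, a chain of the interleukin-18 receptor, by -1.14. Abcg1, which exports cholesterol from macrophages, departed by -1.43, and Abcb1a, which encodes the drug efflux pump P-glycoprotein, by -0.95. Acvrl1, an endothelial receptor for BMP ligands, departed by -1.03.

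The 12 genes above additive with the smallest p included Zfp169, Med24, Eml2, Pard3b, Paqr7, Gstcd, Fam189b, Pla2g12a, Lgr4, Kifc3 and Stau2, with departures from 0.68 to 1.27. Both single agents lay below Vehicle in all 12, and 8 were reversed and 4 attenuated. Every Combo library lay above every single-agent library in 6 of the 12, against 130 of all tested genes (0.948%). As below additive, the genes were chosen on that contrast, and all had limma's adjusted p = 0.911.

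Zfp169, a zinc finger gene, had the smallest p of all tested genes. Zfp169 (ENSMUSG00000050954.16) had 6.62, 6.87 and 6.83 in the Combo libraries, 6.07, 5.75, 6.34 and 5.84 in the MYCi975 libraries, 6.41, 6.32 and 5.81 in the TMP195 libraries, and 6.56, 6.49, 6.34 and 6.66 in the Vehicle libraries. The Combo libraries lay above all single-agent libraries and overlapped the Vehicle libraries. The departure was 1.10 with a 95% interval from 0.55 to 1.65.

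Med24 encodes a subunit of the Mediator complex, which links transcription factors to RNA polymerase. Med24 (ENSMUSG00000017210.15) had 8.25, 7.88 and 7.55 in the Combo libraries, 7.30, 6.54, 7.57 and 6.99 in the MYCi975 libraries, 7.06, 6.55 and 7.24 in the TMP195 libraries, and 7.24, 7.83, 7.44 and 7.20 in the Vehicle libraries. All Combo libraries lay above all TMP195 libraries, and Combo replicate 3 lay just under MYCi975 replicate 3. The departure of 1.27, with a 95% interval from 0.52 to 2.02, was the largest of the 12.

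Eml2, a microtubule-associated gene, stood out for how far both single agents lay below Vehicle. It averaged 6.65 ± 0.27 in Combo (SD, n = 3), 6.16 ± 0.23 in MYCi975 (n = 4), 6.34 ± 0.54 in TMP195 (n = 3) and 7.09 ± 0.33 in Vehicle (n = 4). Additivity of these means gives 5.41, and the departure was 1.24. Paqr7, a membrane receptor for progestins, had 5.96 to 6.05 in Combo, 5.30 to 5.69 in MYCi975, 5.71 to 5.95 in TMP195 and 5.82 to 6.33 in Vehicle. Every MYCi975 library lay below every other library, and the departure was 0.74.

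Gstcd, a gene with a glutathione S-transferase-like domain, was the one of these whose Combo libraries lay above all 11 others. It had 7.99, 7.62 and 7.84 in Combo, 7.07 to 7.49 in MYCi975, 7.09 to 7.47 in TMP195 and 7.37 to 7.55 in Vehicle, and its departure was 0.68. Lgr4, a receptor for R-spondins that strengthens Wnt signalling, had 5.84 to 6.08 in Combo, against 5.39 to 5.59 in MYCi975 and 5.44 to 5.52 in TMP195, with 5.42 to 6.04 in Vehicle. Its departure was 0.69, and the range of the Vehicle libraries covered every other library but Combo replicate 1 and MYCi975 replicate 2.

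Pard3b, a cell polarity gene, departed by 0.76, and Kifc3, a kinesin that walks to the minus ends of microtubules, by 1.0. Stau2, an RNA-binding protein that carries transcripts along microtubules, departed by 0.92, and Pla2g12a, a secreted phospholipase, by 0.99. Fam189b departed by 0.96.

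**Figure D3:**
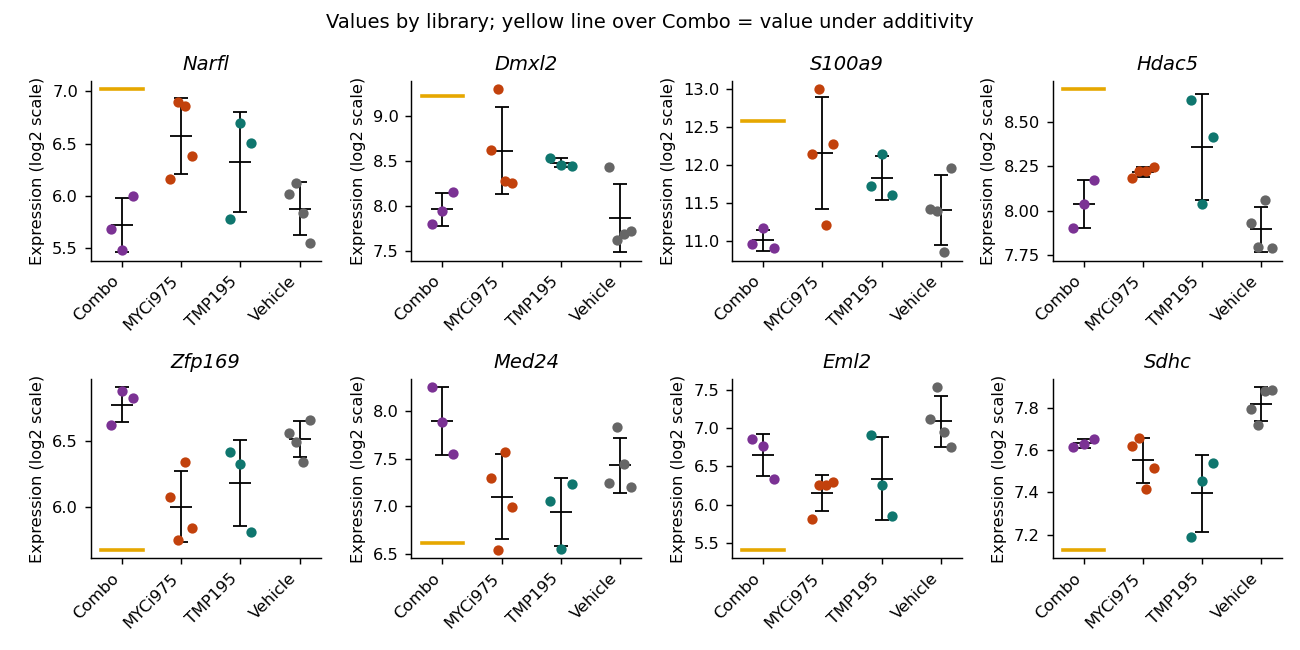
Each panel shows 1 gene (Narfl, Dmxl2, S100a9, Hdac5, Zfp169, Med24, Eml2 and Sdhc), with the expression value of each library on the y axis (log2 scale) as points for Combo, MYCi975, TMP195 and Vehicle, black bars for the group mean and SD, and a yellow line over Combo for the value under additivity. In the upper row every Combo point lies below the yellow line, and in the lower row every Combo point lies above it.

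The rule also named the largest departures within each shape among genes with an unadjusted p under 0.05. Among reversed genes these were Slc2a3, the glucose transporter GLUT3, with a departure of -1.70, and F10, coagulation factor X, with -1.63. Slc2a3 had 7.42, 6.69 and 7.25 in Combo, 8.62, 10.01, 7.33 and 7.11 in MYCi975, 7.53, 8.26 and 7.63 in TMP195 and 7.63, 7.39, 7.15 and 6.85 in Vehicle. The MYCi975 libraries of Slc2a3 spread over almost the whole range, and without MYCi975 replicate 2 the departure was -1.12. F10 averaged 7.69 in Combo, 8.67 in MYCi975, 8.93 in TMP195 and 8.28 in Vehicle.

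Attenuated genes were led by Ighg2b, an immunoglobulin heavy chain gene, with -1.41, and Pde5a, a phosphodiesterase that breaks down cyclic GMP, with -1.29. Pde5a averaged 5.43 in Combo, 6.20 in MYCi975, 5.79 in TMP195 and 5.26 in Vehicle, so that Combo stayed between Vehicle and both single agents. Where the single agents lay on opposite sides and Combo below both, G0s2, an inhibitor of fat breakdown, departed by -1.07 (-0.70 without MYCi975 replicate 2) and Chil3, a chitinase-like gene of alternatively activated macrophages in mice, by -1.05. Chil3 was tight in Combo, with 7.18, 7.23 and 7.28, against 8.77, 9.55, 8.20 and 8.11 in MYCi975, 7.11, 7.38 and 7.91 in TMP195 and 7.74, 7.94, 8.06 and 7.65 in Vehicle. Every Combo library lay below every MYCi975 and every Vehicle library.

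With Combo above both single agents, Lama2, a laminin chain of basement membranes, departed by 1.62 and Ano1, a chloride channel, by 0.93. Lama2 had 8.34, 7.28 and 6.52 in Combo, 5.86, 5.05, 6.25 and 5.66 in MYCi975, 6.41, 6.61 and 5.59 in TMP195 and 5.15, 6.21, 6.17 and 7.06 in Vehicle. Combo replicate 3 of Lama2 lay within the range of TMP195, and Combo replicates 1 and 2 were above all libraries of the other groups.

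The targets of the drugs themselves did not all show the same shape. Myc had 8.98, 9.11 and 9.11 in the Combo libraries, 8.97, 9.27, 9.42 and 8.86 in the MYCi975 libraries, 9.0, 8.96 and 9.15 in the TMP195 libraries, and 8.69, 9.05, 9.27 and 8.86 in the Vehicle libraries. All groups overlapped, and the departure was -0.13 with a 95% interval from -0.59 to 0.34. Max departed by -0.16. These are transcript levels, and MYCi975 acts on the MYC protein, so they do not check whether the compound reached its target.

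Mxd1 and Mxi1, competitors of MYC for MAX named for the smallest p in the network list, lay lower than additive. Mxd1 had 9.02, 9.39 and 9.35 in Combo, 10.37, 11.53, 9.28 and 9.73 in MYCi975, 9.77, 10.14 and 9.89 in TMP195 and 9.92, 9.46, 9.36 and 9.49 in Vehicle. Its departure was -1.35, and -0.91 without MYCi975 replicate 2. Mxi1, at -0.68, had 9.45 to 10.07 in Combo, 9.70 to 10.25 in MYCi975, 10.13 to 10.18 in TMP195 and 9.53 to 9.84 in Vehicle, with every TMP195 library above every Combo and Vehicle library. Over the MYC and MAX network 7 of 10 tested genes lay below additive and 3 above, with a median of -0.17 (-0.07 without TMP195 replicate 3). MYC-responsive genes, as a list of 55, went the other way: 45 lay above additive and 10 below, but the median was only 0.11, and 1 of the 55 had an unadjusted p under 0.05. That gene was Wdr74, a ribosome assembly factor, with a departure of 0.51. Over all tested genes 50.2% lay above additive, and 1.74% lay above at an unadjusted p under 0.05. Srm, the enzyme that makes spermidine, departed by 0.50.

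Among the class IIa deacetylases, Hdac4 and Hdac5 stood below additive at an unadjusted p under 0.05, and Hdac7 and Hdac9 did not reach it. Hdac5 (ENSMUSG00000008855.18), whose promoter holds both motifs above, had 7.91, 8.04 and 8.17 in the Combo libraries, 8.18, 8.22, 8.23 and 8.25 in the MYCi975 libraries, 8.63, 8.04 and 8.42 in the TMP195 libraries, and 7.93, 7.80, 8.06 and 7.79 in the Vehicle libraries. All MYCi975 libraries lay above all Combo and Vehicle libraries, and TMP195 replicate 2 lay among Combo and Vehicle. The departure was -0.65 with a 95% interval from -1.07 to -0.22. Hdac4 (ENSMUSG00000026313.17) had 8.30, 8.52 and 8.52 in the Combo libraries, 8.70, 8.55, 8.48 and 8.54 in the MYCi975 libraries, 8.95, 8.89 and 8.36 in the TMP195 libraries, and 8.76, 8.07, 8.29 and 8.13 in the Vehicle libraries. The groups of Hdac4 overlapped, and the departure was -0.54 with a 95% interval from -1.07 to -0.02. Hdac7 departed by 0.13, with a range from 0.08 to 0.21 when single libraries were left out, and Hdac9 by -0.21, with a range from -0.46 to -0.05. With the MEF2 factors, 6 of 7 genes lay below additive with a median of -0.54, while 10 of 14 MEF2-responsive genes lay below with a median of -0.25 and none of them had an unadjusted p under 0.05. The first median was -0.09 with Ptprc as a covariate, -0.32 without TMP195 replicate 3 and -0.33 without MYCi975 replicate 2, and the second was -0.11 without MYCi975 replicate 2. The class I and IIb deacetylases with their corepressors, which TMP195 does not target, had 11 of 17 above and a median of 0.08. The shares over all tested genes were 49.8% below additive, 50.2% above, and 3.05% below at an unadjusted p under 0.05.

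The gene lists with the lowest medians were those of neutrophils and of leukocytes in general. Of the 11 tested neutrophil markers, all lay below, all had the reversed shape and 7 had an unadjusted p under 0.05, with a median departure of -1.21. Leukocyte markers lay below in 8 of 8, with a median of -0.92 and 7 reversed. Macrophage and monocyte markers lay below in 14 of 14, with a median of -0.46 and none at an unadjusted p under 0.05. That median was -0.14 without TMP195 replicate 3 and -0.19 without MYCi975 replicate 2. T cell markers lay below in 9 of 10 (median -0.31), cytotoxic and natural killer markers in 5 of 7 (median -0.50) and B cell markers in 3 of 3 (median -0.30). Without MYCi975 replicate 2 the T cell and the cytotoxic and natural killer medians were -0.19 and -0.21. The cytotoxic median was also -0.21 without TMP195 replicate 3, and the B cell median ran from -0.49 to -0.19 when single libraries were left out. Dendritic cell markers were split, with 3 of 5 above (median 0.07, and -0.81 with a filter 2 above the lowest value). Over all tested genes 49.8% lay below additive, the median was 0.00 and 3.05% were below at an unadjusted p under 0.05, and the members of a list share cells and libraries, so the counts are not independent.

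List means show the same by library. Each is the mean of the members after centring every gene on its mean over the libraries. The neutrophil list mean was -0.68, -0.39 and -0.35 in the Combo libraries, 0.55, 1.44, -0.38 and -0.15 in the MYCi975 libraries, 0.39, 0.39 and -0.12 in the TMP195 libraries, and 0.08, -0.10, -0.47 and -0.20 in the Vehicle libraries. Combo lay low, TMP195 high in 2 of 3 libraries, and MYCi975 split into 2 libraries above all Vehicle libraries and 2 among them. Without MYCi975 replicate 2, the highest, the median departure of the neutrophil list was -0.95. The leukocyte list mean ran from -0.78 to -0.30 in Combo, -0.24 to 1.04 in MYCi975, -0.18 to 0.62 in TMP195 and -0.33 to 0.28 in Vehicle, and without MYCi975 replicate 2 the median departure of that list was -0.60.

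All 8 leukocyte markers had their lowest group mean in Combo, whereas the markers of dendritic cells and of B cells did not all do so. Ptprc had 9.65, 10.35 and 10.12 in the Combo libraries, 10.87, 12.07, 10.09 and 10.35 in the MYCi975 libraries, 10.46, 10.62 and 11.45 in the TMP195 libraries, and 10.97, 10.26, 10.68 and 10.49 in the Vehicle libraries. Combo was lowest in mean, and 2 of its 3 libraries lay within the range of MYCi975. The departure of Ptprc was -1.05, and -0.64 without MYCi975 replicate 2. Laptm5 and Cd53, membrane proteins of blood cells, departed by -1.19 and -1.05, and Mmp8, neutrophil collagenase, by -1.38. Prf1, perforin of killer cells, and Cd3e, a chain of the T cell receptor complex, departed by -0.75 and -0.76, with 95% intervals that held 0.

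Genes that leukocytes use or respond to lay below additive as well. All 32 interferon response genes lay below, against 49.8% of all tested genes, with a median of -0.74. Only 1 of them had an unadjusted p under 0.05, where the share below additive over all tested genes was 3.05%. That gene was Ifi44, an interferon-induced gene, with 6.61, 6.89 and 6.83 in Combo, 7.22, 7.96, 6.79 and 7.56 in MYCi975, 7.41, 7.47 and 7.58 in TMP195 and 7.09, 6.87, 7.53 and 7.46 in Vehicle. Every TMP195 library of Ifi44 lay above every Combo library, and the departure was -0.85. In 18 of the 32 genes Combo lay below both single agents, which were on opposite sides of Vehicle, and in 10 the shape was reversed. The median of the list was -0.36 without MYCi975 replicate 2, -0.46 without Combo replicate 1 and -0.47 without TMP195 replicate 3.

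Trex1, an exonuclease that removes DNA from the cytosol, was one of 4 interferon response genes with a synergistic shape. It had 4.05, 4.96 and 4.05 in Combo, 5.42, 6.16, 5.20 and 5.10 in MYCi975, 5.01, 5.01 and 5.61 in TMP195 and 5.40, 5.52, 5.81 and 5.47 in Vehicle. Combo lay below all other libraries, and 2 of its libraries stood at the lowest value in the table, where differences are compressed. The departure was -0.78 with a 95% interval from -1.60 to 0.04.

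Antigen presentation genes lay below additive in both classes, with 15 of 16 class I genes (median -0.45) and 9 of 9 class II genes (median -0.81), against 49.8% of all tested genes. With Ptprc as a covariate, described below, the class I and class II medians were both -0.02. Leaving out Combo replicate 1 gave a class I median of -0.29, and leaving out TMP195 replicate 3 a class II median of -0.45. H2-D1, a class I heavy chain, departed by -0.75, B2m, its light chain, by -0.73 and H2-DMb1, which helps load class II molecules, by -0.81 (-0.48 without TMP195 replicate 3). Genes of the major histocompatibility complex have near-identical copies, so single values are uncertain where reads were shared between copies. Inflammatory chemokines and cytokines lay below in 18 of 21 (median -0.70, and -0.11 with the Ptprc covariate). Nos2, the inducible nitric oxide synthase of activated myeloid cells, departed by -1.39, with 7.72, 8.72 and 9.34 in Combo, 9.76, 9.69, 8.24 and 8.70 in MYCi975, 9.55, 9.48 and 9.53 in TMP195 and 9.19, 8.46, 8.63 and 8.26 in Vehicle. The TMP195 libraries of Nos2 lay above all Combo and Vehicle libraries. Il1a, interleukin-1 alpha, departed by -1.09.

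**Figure D4:**
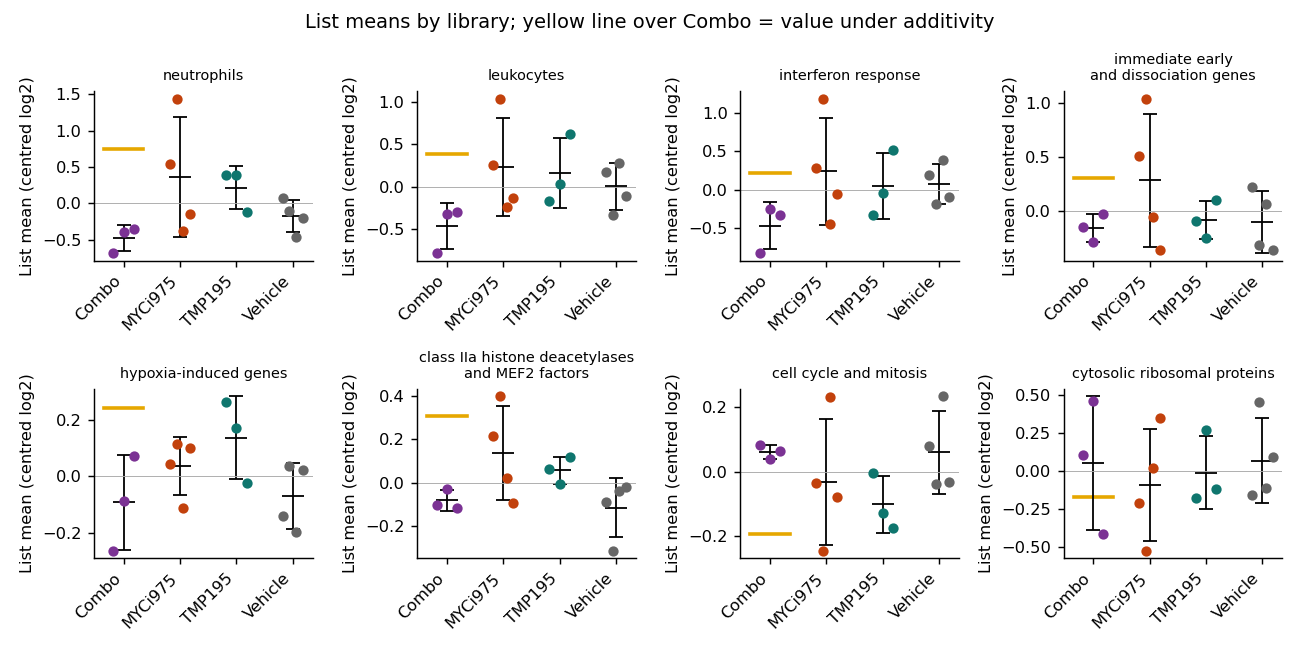
Each panel shows 1 gene list, with the list mean of each library (centred log2 values) as a point for Combo, MYCi975, TMP195 and Vehicle, black bars for the group mean and SD, and a yellow line over Combo for the value under additivity. In the neutrophil panel MYCi975 replicate 2 is the highest point at 1.44 and the Combo points lie at -0.68, -0.39 and -0.35.

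Ptprc moved with the departures below additive. With Ptprc as a covariate in the model, the number of genes at an unadjusted p under 0.05 was 126 below and 131 above additive. Of the 418 genes below additive, 69 (16.5%) kept an unadjusted p under 0.05 with the same sign, and the median departure over all 418 was -0.39 with the covariate, against -0.78 without it. Of the 238 genes above, 59 (24.8%) kept it. The median of the neutrophil list was then -0.55 and that of the leukocyte list -0.18. Of the lists with medians below 0, those of the interferon response (0.16), macrophages and monocytes (0.20), T cells (0.09), cytotoxic and natural killer cells (0.18), immediate early and dissociation genes (0.10), MEF2-responsive genes (0.07) and the MYC and MAX network (0.01) crossed to the other side. Of the lists above 0, those of cytosolic ribosomal proteins (-0.10), erythroid cells (-0.80), collagens and matrix (-0.31), pericytes and smooth muscle (-0.18), mitochondrial chaperones and proteases (-0.07), complexes II to V (-0.01) and cytosolic heat shock chaperones (0.00 after rounding) crossed it. Ptprc itself has the departure of -1.05 given above, so the covariate takes away part of any difference between groups that it shares with the gene. All 8 leukocyte markers were tested and none stood at the lowest value in any library. Whether the makeup of the tumours accounts for the departures was not tested.

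Genes of hypoxia and of glucose use also lay below additive. Of 26 hypoxia-induced genes 24 lay below, against 49.8% of all tested genes. The list median was -0.31, and with Ptprc as a covariate it was -0.33. Hif1a, the oxygen-regulated subunit of the hypoxia-inducible factor, had 11.02, 11.14 and 11.97 in Combo, 11.73, 12.15, 11.59 and 11.52 in MYCi975, 11.63, 11.77 and 11.76 in TMP195 and 11.55, 11.30, 11.72 and 11.49 in Vehicle. Combo held both the lowest libraries and one of the highest, and the departure was -0.57 with a 95% interval from -1.20 to 0.05.

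Bnip3, a mitophagy receptor that hypoxia induces, was more even. It had 8.83, 9.17 and 9.07 in Combo, 9.30, 9.62, 8.91 and 9.39 in MYCi975, 9.50, 9.33 and 9.35 in TMP195 and 8.99, 9.07, 8.94 and 9.16 in Vehicle. Every TMP195 library lay above every Combo and Vehicle library, and the departure was -0.63 with a 95% interval from -1.08 to -0.18. Glycolysis and lactate export genes lay below in 18 of 22 (median -0.23, and -0.13 without Combo replicate 1), 6 of them at an unadjusted p under 0.05. Over all tested genes 49.8% lay below additive, and 3.05% lay below at that level. Pfkp, a phosphofructokinase, departed by -0.76, and Pfkfb3, whose product makes the activator of that enzyme, by -1.07.

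Stress genes were mixed, where 49.8% of all tested genes lay below additive. The integrated stress response was split, with 13 of 24 below and a median of -0.05, although Cebpb, a transcription factor of myeloid cells and of stress, departed by -0.94 and Vldlr, a lipoprotein receptor, by -1.21. Cebpb had 9.48, 9.38 and 9.77 in Combo, 10.09, 10.73, 9.67 and 10.08 in MYCi975, 9.91, 10.26 and 10.26 in TMP195 and 10.04, 9.51, 9.80 and 9.84 in Vehicle. All TMP195 libraries of Cebpb lay above all Combo libraries. Chaperones and stress genes of the endoplasmic reticulum lay below in 20 of 22 (median -0.17), where Herpud1, a factor of protein disposal, departed by -0.62 with a 95% interval that held 0.

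NRF2 and glutathione genes lay below in 15 of 24 (median -0.15, and -0.02 with Ptprc as a covariate), against 49.8% of all tested genes. Gclm, which encodes the regulatory subunit of glutamate-cysteine ligase, the first enzyme of glutathione synthesis, had 7.75, 7.31 and 7.94 in Combo, 7.39, 7.18, 7.97 and 8.07 in MYCi975, 8.20, 8.70 and 7.96 in TMP195 and 7.32, 7.01, 7.82 and 7.02 in Vehicle. All TMP195 libraries lay above all Vehicle libraries and overlapped MYCi975, Combo averaged 7.67 and MYCi975 7.65, and the departure was -0.98. Hmox1, haem oxygenase, departed by -0.81. Immediate early and dissociation genes lay below in 22 of 26 (median -0.48), among them Dusp1, a phosphatase that ends MAP kinase signals, at -1.16 (-0.76 without MYCi975 replicate 2) and Socs3, a brake on cytokine receptors, at -0.74. The mean of that list was -0.29 to -0.03 in Combo, 0.50, 1.04, -0.06 and -0.36 in MYCi975, -0.25 to 0.10 in TMP195 and -0.37 to 0.22 in Vehicle, and without MYCi975 replicate 2 the median departure was -0.22.

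The genes of p53 and growth arrest lay below in 13 of 17 (median -0.27), against 49.8% of all tested genes. The list median was -0.13 without TMP195 replicate 3 and -0.01 with Ptprc as a covariate. Gadd45a, which is induced by DNA damage and stress, had 7.41, 7.81 and 7.73 in Combo, 8.25, 8.69, 8.29 and 8.23 in MYCi975, 7.98, 8.11 and 7.55 in TMP195 and 7.84, 7.73, 7.31 and 8.03 in Vehicle. Every MYCi975 library lay above every other library, Combo lay at the level of Vehicle, and the departure was -0.87. Ccng2, a cyclin of arrested cells, departed by -0.54. The BCL2 family was split, with 8 of 15 below (median -0.28, and -0.12 without MYCi975 replicate 2), and Bad, which promotes cell death, departed by 0.60. In the list of PAF1 and elongation factors, 15 of 19 lay below (median -0.13). Ctr9, a scaffold of the PAF1 complex, had 7.81, 8.31 and 8.18 in Combo, 8.37, 8.58, 8.51 and 8.55 in MYCi975, 8.13, 8.35 and 8.04 in TMP195 and 8.05, 8.02, 7.89 and 7.99 in Vehicle. Every MYCi975 library of Ctr9 lay above every other library, and the departure was -0.59.

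The series' title names mitochondrial dysfunction, and the lists of nuclear genes for mitochondrial proteins had medians from -0.07 to 0.08. Nuclear genes of complex I lay above additive in 22 of 36 (median 0.08) and those of complexes II to V in 23 of 40 (median 0.06). The tricarboxylic acid cycle had a median of 0.02, mitochondrial chaperones and proteases 0.01, genes of mitochondrial transcription and DNA maintenance 0.04 and those of mitochondrial dynamics and mitophagy -0.07. Mitochondrial ribosomal proteins lay above in 45 of 76 (median 0.08), with 5 at an unadjusted p under 0.05. Over all tested genes 50.2% lay above additive, and 1.74% lay above at that level.

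Sdhc, which anchors succinate dehydrogenase in the inner membrane, was the one member of complexes II to V with an unadjusted p under 0.05. Sdhc (ENSMUSG00000058076.13) had 7.61, 7.63 and 7.65 in the Combo libraries, 7.62, 7.65, 7.42 and 7.52 in the MYCi975 libraries, 7.19, 7.45 and 7.54 in the TMP195 libraries, and 7.79, 7.72, 7.88 and 7.88 in the Vehicle libraries. Every treated library, in all 3 treated groups, lay below every Vehicle library, and Combo lay above all TMP195 libraries. How many of all tested genes separate in this way was not counted. The departure was 0.50 with a 95% interval from 0.13 to 0.87, the shape attenuated and limma's adjusted p = 0.911. Uqcrfs1, the iron-sulphur protein of complex III, and Suclg2, a subunit of succinyl-CoA synthetase, also lay above additive, with 95% intervals that held 0. Mrps16 and Mrps26, proteins of the small mitochondrial ribosomal subunit, departed by 0.51 and 0.62, and the complex I genes Ndufv3 and Ndufb2 by -0.60 and -0.56.

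Transcripts encoded in the mitochondrial genome lay below additive in 12 of 13 (median -0.36), against 49.8% of all tested genes, but the spread of these transcripts was wide. Their list mean was 0.41, -0.31 and -1.08 in Combo, 0.33, 0.33, -0.83 and 0.59 in MYCi975, -1.10, 0.35 and 0.76 in TMP195 and -0.45, 0.29, -0.49 and 1.19 in Vehicle. All groups overlapped, and the median departure was 0.05 without Combo replicate 3 and 0.05 without TMP195 replicate 3. mt-Nd6 and mt-Atp8, with the smallest p in the list, had departures of -0.52 and -0.43 with 95% intervals from -2.0 to 0.96 and from -1.98 to 1.12.

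Cell cycle and mitosis genes lay above in 43 of 46, with a median of 0.26 and 3 at an unadjusted p under 0.05, and cytosolic ribosomal proteins in 68 of 78, with a median of 0.24 and none at that level. The shares over all tested genes were 50.2% above additive and 1.74% above at that level. With Ptprc as a covariate the first median was 0.12 and the ribosomal one -0.10. The ribosomal median also rested on single libraries, with 0.04 without Combo replicate 2, 0.08 without MYCi975 replicate 2 and 0.46 without Combo replicate 3, while that of the cell cycle stayed between 0.20 and 0.36. Cdc25a, a phosphatase that starts DNA replication, had 6.94, 7.25 and 7.21 in Combo, 7.0, 6.83, 7.17 and 6.92 in MYCi975, 6.76, 6.40 and 7.0 in TMP195 and 7.16, 7.04, 7.16 and 7.31 in Vehicle. Every TMP195 library lay below every Vehicle library, Combo lay among the Vehicle libraries but for replicate 1, and the departure was 0.60. Gins2, a part of the replicative helicase, departed by 0.75 (0.48 without Combo replicate 2).

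The ribosomal protein genes Rplp0 and Rps6 departed by 0.47 and 0.66, with 95% intervals that held 0, and as members of a family with many copies their single values are uncertain. Their list mean spread from -0.42 to 0.46 in Combo and from -0.53 to 0.35 in MYCi975, against -0.18 to 0.27 in TMP195 and -0.16 to 0.45 in Vehicle. Cholesterol synthesis genes lay above in 16 of 22 (median 0.21, and 0.10 without Combo replicate 3), against 50.2% of all tested genes. Fdps, which makes farnesyl pyrophosphate, departed by 0.45, with a 95% interval that held 0, and Ebp, a sterol isomerase, by -0.49.

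Marker lists of other cells and the list of tumour and epithelial genes had medians near 0 or few tested genes. For comparison, 49.8% of all tested genes lay below additive and 50.2% above. Endothelial markers were split, with 5 of 10 on each side, Erg, an endothelial transcription factor, at -0.69 and Emcn, endomucin, at 0.77. Erg had 4.85, 5.19 and 4.86 in Combo, 5.62, 5.74, 5.43 and 5.62 in MYCi975, 5.24, 5.59 and 5.60 in TMP195 and 5.33, 5.20, 5.54 and 5.65 in Vehicle. All Combo libraries of Erg lay below all other libraries. Fibroblast markers had 8 of 12 below (median -0.12), pericyte and smooth muscle markers 4 of 4 above (median 0.19), and collagens and matrix genes 12 of 23 above (median 0.02). When single libraries were left out, these medians ran from -0.28 to 0.05, from 0.02 to 0.36 and from -0.12 to 0.24. Thbs1, thrombospondin-1, departed by -1.33 in that last list, and without MYCi975 replicate 2 by -0.93. Matrix proteases and their inhibitors had 12 of 20 below (median -0.10), with Plaur, the receptor for urokinase, at -0.92.

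Tumour and epithelial genes had 5 of 10 on each side, with departures from -0.70 to 0.71. Their median was 0.01, and 0.40 without TMP195 replicate 3. Krt18 departed by 0.63, and Igf2, a fetal growth factor, by 0.71. Igf2 had 6.08, 6.13 and 5.41 in Combo, 5.31, 4.95, 4.94 and 5.55 in MYCi975, 4.73, 4.87 and 5.04 in TMP195 and 4.83, 4.80, 4.55 and 5.44 in Vehicle. All Combo libraries lay above all TMP195 libraries, and Combo replicate 3 lay within MYCi975 and Vehicle. TGF-beta and BMP response genes had 13 of 19 below (median -0.10), against 49.8% of all tested genes. In that list Bmp4, a BMP ligand, had 5.26 to 5.58 in Combo, 4.90 to 5.57 in MYCi975, 6.56, 6.35 and 5.88 in TMP195 and 4.58 to 5.85 in Vehicle, so that every TMP195 library lay above every other library. Its departure was -0.91, and that of Id1, a target of BMP signals, was -0.52 with a 95% interval that just held 0.

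Skeletal muscle genes had the highest list median, 0.86, on 3 of 10 members that passed the filter on low values. Their list mean spread from -1.97 to 0.47 in Combo, -0.75 to 2.25 in MYCi975, -1.63 to -0.83 in TMP195 and -1.82 to 2.80 in Vehicle. Myh4 and Acta1, a myosin and an actin of muscle, departed by 0.86 and 0.56 with 95% intervals that held 0, and leaving out single libraries moved the first between 0.15 and 1.72 and the second between 0.16 and 1.15. Erythroid markers lay above in 7 of 7 (median 0.25), against 50.2% of all tested genes, and the list median was -0.24 without MYCi975 replicate 2. Fatty acid genes (median -0.01, and 0.02 with each library centred on its median), cytosolic heat shock chaperones (0.09), adipocyte markers (1 of 6 tested) and keratinocyte markers (0 of 7 tested) complete the lists. Over the 48 lists with a tested member, 29 had a median below 0 and 19 above. Of 919 different list genes tested, 53 (5.77%) lay below additive at an unadjusted p under 0.05, against 3.05% of all genes, and 13 (1.41%) lay above, against 1.74%. The lists were chosen with earlier results of these data known, so nothing follows from the difference in shares.

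**Figure D5:**
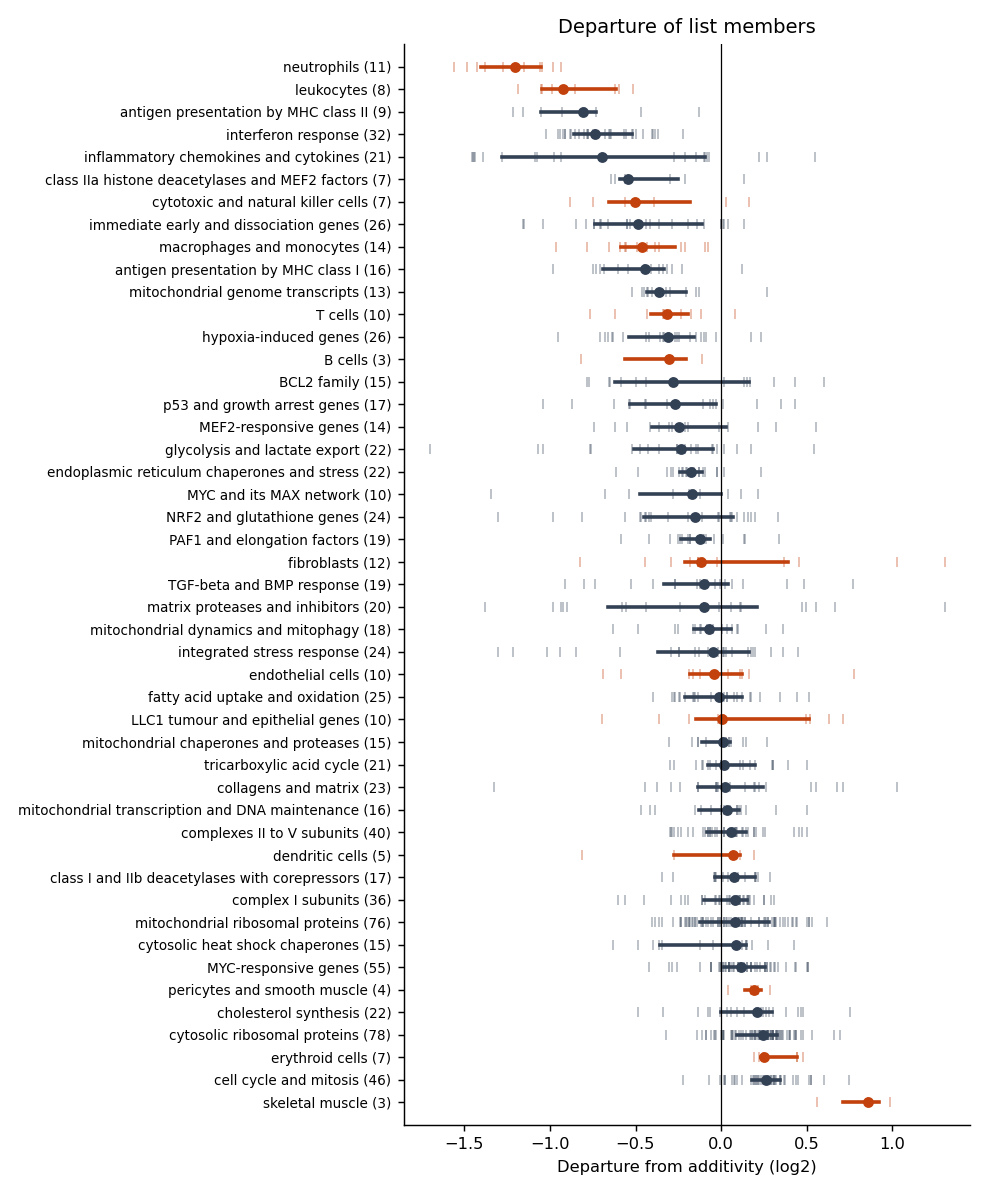
Each row is a gene list, ordered by its median departure, with the number of tested members in brackets, the departure of each member as a tick on the x axis (log2 units), the median as a point and the middle of the members, between the quartiles, as a thick line; markers of cell types are orange, 0 is additivity, and the adipocyte and keratinocyte lists are not drawn. Neutrophil, leukocyte and class II antigen presentation genes lie at the lower end, with medians of -1.21, -0.92 and -0.81, and cell cycle genes lie above 0 with a median of 0.26.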

How the data were processed

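RNA from LLC1 tumours was sequenced in 14 libraries (Combo 3, MYCi975 4, TMP195 3, Vehicle 4) prepared with a stranded total RNA kit, per the labels' protocols. The extraction protocol names enrichment for tumour cells. The design text names a suspension of the whole tumour and the sample titles read bulk tumor, so the material sequenced is unsettled. The deposited table holds variance-stabilised values on a log2-like scale for 21152 mouse Ensembl genes, normalised by the authors. The submitters' processing notes name Salmon and the human build hg38, although the gene IDs are from mouse, so the build is unsettled and no coordinate was taken from the deposited table. Depth and raw counts are not used here, so no count test was possible.

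Symbols were found for 20264 IDs (95.8%). Genes with a mean more than 1 above the lowest value were tested with limma 3.58.1 in R 4.3.3, with 1 mean per group, an intensity trend, 10 residual degrees of freedom and two-sided p-values with Benjamini-Hochberg adjustment. The model was tested on simulated data first. Differences are understated near the lowest value. Genes were named by a rule: the 12 smallest p in each direction, the 2 largest departures of each shape, up to 2 members of each list with the smallest p, and the drug targets, Hif1a and Ptprc. Of the genes so chosen, 1 is not reported here. The genes and lists were chosen with earlier results of these data known. Where a group is said to lie apart from others without a share over all genes, that share was not counted. Alternatives were other filters, scalings, moderation, library weights, a replicate term, Ptprc as a covariate, group medians, the linear scale and leaving out each library.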

Additional observations from a re-analysis of the deposited data

Results flagged for a closer look

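In the groups of 4 libraries, 11 of 286 checks over 95 genes and 48 lists had 1 library whose gap to the nearest other was, as a share of the range of the group, above Dixon's 95% critical value. With independent normal values and no selection, about 1 in 20 would be flagged, which is 14.3 here. Most of the genes were chosen by their values in these libraries, and genes and lists share the libraries. Nothing therefore follows from setting 11 beside 14.3. Hdac9 had 5.51 in MYCi975 replicate 4, where the remaining libraries of the group had 6.03 to 6.11. Gadd45a had 8.69 in MYCi975 replicate 2, against 8.23 to 8.29. Eml2 had 5.81 in MYCi975 replicate 1, against 6.25 to 6.30, and Pde5a had 5.32 there, against 6.44 to 6.55. Dmxl2 had 8.43 in Vehicle replicate 1, against 7.62 to 7.72 in the other Vehicle libraries, and Ndufv3 had 6.88 there, against 7.45 to 7.52. Ccng2 had 6.99 in Vehicle replicate 2, against 7.35 to 7.41, and Mreg had 4.70 in Vehicle replicate 4, against 5.07 to 5.13. The list mean of the BCL2 family was -0.11 in Vehicle replicate 2, against 0.02 to 0.03, and that of matrix proteases and inhibitors was 0.26 there, against -0.09 to -0.05. The list mean of erythroid markers reached only -1.48 in MYCi975 replicate 2, where the other 3 libraries of MYCi975 had 0.38 to 0.44.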

How the results depend on the processing

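No gene passed an adjusted p of 0.05 in any of 23 alternative limma fits, and the smallest adjusted p among them was 0.592, without MYCi975 replicate 3. At an unadjusted p under 0.05, the count above additive was 414 with no filter on low values, 154 with a filter 2 above the lowest value and 131 with Ptprc as a covariate, against 238 as reported. The count below was 126 with Ptprc as a covariate, against 418. Leaving out 1 library at a time moved the count above between 144 and 352 and the count below between 214 and 739. Median centring gave 278 above and 367 below, and quantile normalisation 299 and 363. The 24 leading genes kept their direction in every alternative that could be run on them, 24 for 16 genes and 23 for the 8 that a filter 2 above the lowest value leaves out. Among 95 named genes the only reversal was Max, at 0.029 with Ptprc as a covariate. Genes with Combo between opposed single agents numbered 1841 to 3277 when single libraries were left out, the highest without TMP195 replicate 3. The cause of these shifts was not tested. On the linear scale 96.8% of departures kept their sign.

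Replicate numbers were shared by the groups, but of 19 same-numbered pairs of libraries 6 had correlated deviations above 0.1, and the range was -0.30 to 0.21. Other pairs ran from -0.25 to 0.34. The check showed no pairing by number and, with so few libraries per group, cannot exclude it. With a replicate block 254 genes lay above and 418 below additive at an unadjusted p under 0.05, and 0 passed the adjusted threshold.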
